A study of Mus musculus with 5 samples.

Results

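Translation initiation and elongation factors are the proteins that load the ribosome onto messenger RNA and move it along. They were measured here in dissected tissue of wild-type mouse embryos at stage E10.5. The dissected piece contained the pharyngeal arches, the paired outgrowths below the hindbrain, and, by its label, second heart field cells. All 5 samples belonged to 1 group: separate tissue isolates of wild-type embryos of the strain 129P2/OlaHsd backcrossed for 2 generations to C57BL/6, with no treatment named. From each, 10 ng of total RNA was amplified with the NuGEN WT-Ovation Pico kit and hybridised to 1 Affymetrix Mouse Genome 430A array. The factors were taken by gene symbol as all probe sets annotated to exactly 1 gene whose symbol begins with Eif1 to Eif6, Eef1 or Eef2, without the sex-linked pair Eif2s3x and Eif2s3y. This gave 114 of 22690 probe sets on the array and 50 of 12393 genes. Another 6 probe sets that also carried such a symbol were annotated to several genes and were left out, so Eif4a3, Eef1g, Eif3j1 and Eif3j2 have no value here. With 1 group there was no contrast between conditions, and each value is set against a background level or against the spread over the samples.

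Initiation starts when the small ribosomal subunit binds eIF1, eIF1A and eIF3 and takes up the initiator tRNA from eIF2 in its GTP-bound form. The cap-binding complex eIF4F brings the messenger RNA, eIF5 and eIF5B complete the joining of the large subunit, and eEF1 and eEF2 then drive elongation. Cells slow this machine at a few known points: kinases that phosphorylate eIF2 and so block its recycling by eIF2B, small proteins that hold eIF4E away from eIF4G, and a kinase that inhibits eEF2.

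Several messenger RNAs of this machinery begin with a run of pyrimidines, the terminal oligopyrimidine tract, through which the kinase mTOR and the protein LARP1 set their translation. RefSeq promoter windows (GRCm38.p6, 250 bases before to 50 after each annotated start) were at hand for 40 of the 50 genes. Motifs were chosen after these sequences had been seen. A run of at least 6 C or T bases that covered the first annotated base was found in 4 of the 40 (10%), against 8.32% of the 9883 genes of the array with a window. These 4 stretches, from 10 bases before the start to 20 bases from it on, are shown 5′ to 3′ with the run in capitals, so that the letters around the start can be read. The known tract begins with a C at the first transcribed base, and a run that only covers the annotated start need not be one. In Eef1a1 and Eif3l the first annotated base is a T and not a C, and in Eef1a1 the run of 10 bases began 5 bases before the start. In Eif3l and Eif2b5 most of the run lies before the start, and in Eif2b5 it began further upstream than the stretch shown.
Eef1a1, chr9:78481705-78481734, minus strand: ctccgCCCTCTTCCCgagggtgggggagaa
Eif3f, chr7:108934405-108934434, plus strand: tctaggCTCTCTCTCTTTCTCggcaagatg
Eif3l, chr15:79075213-79075242, plus strand: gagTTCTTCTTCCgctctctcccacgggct
Eif2b5, chr16:20498807-20498836, plus strand: CTCTTTCTCTCCCTgcaactacaccttcgc

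A second shared feature was the core of the ETS transcription factor motif, CCGGAAGT, searched on both strands of the whole window. It occurred in 8 of 40 genes (20%), against 7.23% of the 9883 genes: Eef1b2, Eif2ak1, Eif2b2, Eif2b4, Eif3d, Eif3l, Eif4e2 and Eif5a. The cyclic AMP response element TGACGTCA, also searched on both strands, was found in 1 of 40 (2.5%), Eef2, against 3.0% of all. A match is a description of the letters and not a binding site. The 4 ETS matches that lie within 20 bases of the start on the coding strand are shown with the motif in capitals, since they lie among the first transcribed bases. For Eif4e2, which has 3 annotated starts, the match lies upstream of 1 of them.
Eef1b2, chr1:63176821-63176850, plus strand: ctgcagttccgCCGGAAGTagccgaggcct
Eif4e2, chr1:87213905-87213934, plus strand: tcgccagccaaCCGGAAGTagccgggccct
Eif2b4, chr5:31193120-31193149, minus strand: cccagtgcacgCCGGAAGTtgtagtccgct
Eif2b2, chr12:85219486-85219515, plus strand: cctctctcggcCCGGAAGTgaaacagtgct

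Nearly the whole set left a signal. Above background were 46 of the 50 genes (92%), against 53.7% of all 12393 genes, and 94 of the 114 probe sets (82.5%), against 49.9% of all 22626 probe sets without controls. The 4 genes that did not pass were Eef1a2, Eef2k, Eef1aknmt and Eef2kmt, a tissue-restricted isoform, a kinase and a pair of methyltransferases of the elongation factors. Every initiation factor gene and eIF2 kinase in the set passed. When the mean over all probe sets of a gene was tested instead, Eif2ak3 also did not pass, leaving 45 of 50 genes against 47.6% of all. A gene counts as above background when any of its probe sets does, and the values given for it are those of its brightest probe set. Background genes were taken by name from families of restricted expression. These were smell, pheromone and taste receptors, hair and skin barrier proteins, defensins, urinary proteins, caseins, alpha interferons, lymphocyte receptors and sperm nuclear proteins. To set a background level for an array, the 95th percentile was taken over their 185 probe sets. It was a signal of 17.8, 16.4, 19, 22.7 and 23.4 in replicates 1 to 5. The test was limma, one-sided, on the log2 distance from that level, with Benjamini-Hochberg adjustment over all 22626 probe sets. Among the 46 genes above background the adjusted p was 2.75e-07 or lower. A broader choice of background genes raised the mean level to 146, and 31 of the 50 genes then passed. Among the genes given below with the value in every sample, those that passed before and then lay below the level were Eif2ak2, Eif2ak4, Eif2b1, Eif3b, Eif4enif1, Eif4ebp1 and Eif4e3.

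The median signal of the 50 genes was 595, against 36.9 over all genes. The median excess over the level, the log2 distance from it, was 4.87 for the set and 0.84 for all genes. Probe sets bind with different strength, so signals of different genes are not ordered here, and these medians describe lists of probe sets. Signals are on the deposited linear scale, given for replicates 1 to 5 in that order, with means ± SD (n = 5), and each excess is in log2 units with its SE.

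**Figure D1:**
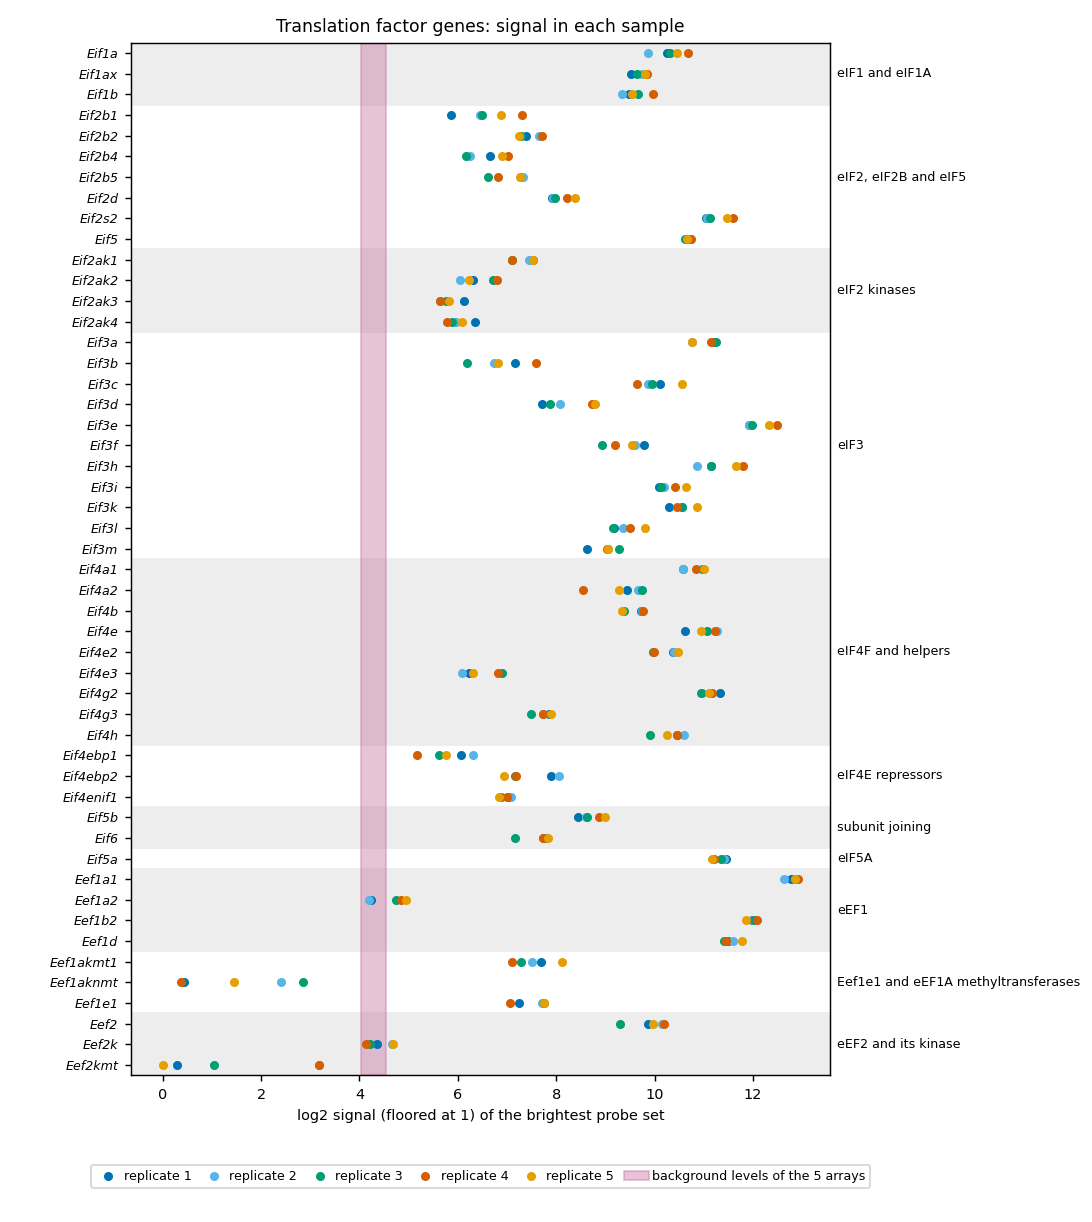
Signal of the brightest probe set of each of the 50 translation factor genes on a log2 scale, 1 dot per sample, grouped by role, with the range of the 5 background levels as a vertical band. Eef1aknmt and Eef2kmt lie below the band, Eef2k and Eef1a2 overlap it, and the other 46 genes to the right of it.

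The tissue label was checked with marker genes. Above background were 5 of 5 arch mesenchyme genes, 2 of 2 cardiac progenitor genes, 3 of 3 epithelial genes, 7 of 7 neuronal genes, 3 of 4 red blood cell genes, 4 of 4 muscle genes and 1 of 3 leukocyte genes. Genes of several cell types were thus measured together, and in such bulk samples fewer cells of a type and less RNA per cell cannot be told apart. After scaling, the median signal per array ran from 28.1 to 32.2. Whether isolates shared a litter is not in the labels, so the p-values measure the spread between isolates.

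The first contacts of the small subunit were seen in every sample. Eif1a encodes eIF1A, which with eIF1 keeps the subunit open for scanning. Its brightest probe set gave 1221, 935, 1276, 1632 and 1408, a mean of 1294 ± 256 and an excess of 6.02 ± 0.06. Eif1ax, the X-linked copy, gave 733, 853, 796, 918 and 897 (839 ± 75.7). On this brightest probe set the lowest sample was replicate 1, and replicates 4 and 5 were close together at the top. The second probe set of Eif1ax gave 559, 605, 716, 689 and 509, highest in replicate 3 and lowest in replicate 5. Eif1b, a close relative of Eif1, which has no member probe set, gave 718, 644, 812, 1002 and 747 (784 ± 136). On the brightest probe sets replicate 4 was the highest sample for all 3 genes. All 5 of their probe sets were above background.

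The genes of eIF2 and its recycling were all above background, 7 of 7, with 17 of 20 probe sets. Eif2s2 encodes the beta subunit of eIF2. It gave 2120.1, 2132, 2226, 3075 and 2849.7 (2481 ± 449), with replicates 4 and 5 above the other samples on this brightest probe set. None of its other probe sets above background had both of these replicates above the rest. On the next brightest, replicate 4 was the lowest sample (1152, against 1201 to 1377 in the others). Eif5, the factor that makes eIF2 hydrolyse its GTP, gave 1696, 1699.7, 1565, 1716 and 1623 (1659.8 ± 63.8, excess 6.40 ± 0.11). Its SD of 0.06 log2 units was the smallest among the member genes above the level, each taken by its brightest probe set. On the other probe sets of Eif5 the SD was larger, at 0.19, 0.19 and 0.25 log2 units. Eif2d, which can deliver tRNA to the ribosome without eIF2, gave 243, 244, 253, 297 and 336 (275 ± 40.9).

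The exchange factor eIF2B reloads eIF2 with GTP, and 4 of its subunits were measured. Eif2b1, the alpha subunit, gave 58, 86.9, 90.2, 158 and 118 (102 ± 37.9), a 2.73-fold range between replicates 1 and 4. Its SD of 0.54 log2 units was the largest among the member genes above the level, and it did not pass the test of variance (adjusted p = 0.99, F test against limma's trend). Means of the beta, delta and epsilon subunits were 177 ± 26.1 for Eif2b2, 99.3 ± 25.4 for Eif2b4 and 136 ± 28.9 for Eif2b5. Their lowest and highest samples differed by 1.36-fold, 1.8-fold and 1.64-fold.

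All 4 kinases that phosphorylate eIF2 alpha were above background. Eif2ak1 encodes HRI, which senses heme. It gave 183, 175, 137, 137 and 184 (163 ± 24.2, excess 3.04 ± 0.16). Replicates 3 and 4 were its lowest samples on this probe set. Another probe set of Eif2ak1 above background gave 54.2, 55.3, 39.2, 81.1 and 68.8, lowest in replicate 3 and highest in replicate 4. Eif2ak2, the double-stranded RNA sensor PKR, gave 79.6, 65.6, 106, 111 and 74.7 (87.4 ± 20.1). Eif2ak4 encodes GCN2, which responds to uncharged tRNA, and gave 81.8, 62.6, 58.7, 55.1 and 67.7 (65.2 ± 10.4). Eif2ak3, the endoplasmic reticulum kinase PERK, had a mean of 56 ± 8.35 on 1 of its 3 probe sets, and the other 2 were not above background.

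The scaffold complex eIF3 was represented by 11 genes, and all 11 were above background. Eif3e gave 3861, 3885, 4075, 5766 and 5111 (4539.6 ± 856, excess 7.83 ± 0.05). Eif3h gave 2286, 1876, 2277, 3551 and 3219 (2642 ± 708). For both of these subunits of the PCI and MPN core replicates 4 and 5 lay above the other 3 samples without overlap on the brightest probe set. On the other 2 probe sets of Eif3e above background, replicate 4 was the lowest sample instead. The first gave 2899, 2218, 2945, 2184 and 2658, and the second gave 1699, 1651, 1879, 1522 and 1681. Eif3a, the largest subunit, gave 2369, 1747, 2444, 2275 and 1745 (2116 ± 343), with replicates 2 and 5 low on this brightest probe set. Its other probe sets, all above background, had other orders. One gave 932, 1032.5, 748, 941 and 781, highest in replicate 2. The others were lowest in replicate 1 (885) and in replicate 3 (206). Eif3b, which holds eIF3g and eIF3i in the complex, gave 144, 107, 73, 192 and 112 (126 ± 44.8). Its range between replicates 3 and 4 was 2.63-fold. Eif3d, a subunit that can itself bind the cap, gave 211, 269, 233, 422 and 440.1 (315 ± 108), again with replicates 4 and 5 apart from the others. The remaining 6 subunits (Eif3c, Eif3f, Eif3i, Eif3k, Eif3l and Eif3m) had means between 520.2 and 1509.6, with lowest and highest samples 1.47- to 1.88-fold apart.

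The cap-binding complex and its helpers gave 9 of 9 genes above background, on 22 of 24 probe sets. Eif4e, which binds the cap, gave 1576, 2455, 2144, 2407 and 1979 (2112 ± 357, excess 6.73 ± 0.15), with replicate 1 the lowest. Eif4e2 encodes 4EHP, a cap binder that does not join eIF4G, and gave 1326, 1356, 999, 1014 and 1429 (1225 ± 203). Eif4e3, another cap-binding relative, gave 74.5, 67.5, 119, 113 and 79.6 (90.7 ± 23.5). Thus eIF4E and both of its relatives left a signal in this tissue. Eif4g2 encodes DAP5, a relative of the scaffold eIF4G that lacks the eIF4E contact, and gave 2570.4, 1996, 1979, 2312 and 2195 (2210.4 ± 245). Eif4g3, a full-length scaffold, gave 230.4, 212, 180.3, 213 and 239.7 (215 ± 22.7). Eif4g1 has no member probe set.

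Eif4a1 and Eif4a2 encode paralogous helicases of eIF4F, and both were above background. Eif4a1, the general form, gave 1538, 1521, 1993, 1835 and 2062 (1789.9 ± 252). Eif4a2, a form known to be abundant in brain, gave 691, 807, 853, 374 and 625 (669.7 ± 189, excess 5.03 ± 0.29). Replicate 4 stood below all other samples for Eif4a2 and not for Eif4a1. The SD was 0.47 log2 units for Eif4a2 and 0.21 for Eif4a1, and the difference between them was not tested. The variance of Eif4a2 was 3.29 times the trend, with an adjusted p of 0.938 (F test against limma's trend). Neuronal genes were low in the same sample: the summed signal of the 7 neuronal genes was 3244 in replicate 4 and 4344 to 6132 in the other samples, and all 7 were above background. The summed signal of the 4 red blood cell genes was also lowest in replicate 4 (8388, against 10757 to 16724). So were those of the 3 leukocyte genes (144, against 196 to 246) and the 2 cardiac progenitor genes (1344, against 1448 to 1846). Single genes departed from these sums. The cardiac progenitor gene Mef2c was highest in replicate 4 (249, against 183 to 221 in the other samples). Among the leukocyte genes only Coro1a was above background, and Ptprc was lowest in replicate 2. The neuronal gene Dcx was lower in replicates 2 and 5 than in replicate 4. The part of these cell type genes in the value of Eif4a2 was not tested. The helpers of the helicase, Eif4b and Eif4h, had means of 778 ± 111 and 1308 ± 225.

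Repressors of eIF4E were above background in 3 of 3 genes, and on their brightest probe sets the highest signals were in replicates 1 and 2. Eif4ebp2, the form of 4E-BP known from brain, gave 239, 265, 143, 146 and 123.4 (183 ± 63.8), with replicates 1 and 2 above the other samples without overlap. Eif4ebp1, the classical mTOR target, gave 66.6, 79.7, 48.9, 36.2 and 53.9 (57.1 ± 16.7, excess 1.49 ± 0.28), and replicates 1 and 2 were again its highest. A second probe set of Eif4ebp1 above background gave 53.3, 53.4, 43.8, 69.8 and 47.7, highest in replicate 4, the lowest sample on the first. Eif4enif1, a carrier of eIF4E into the nucleus, gave 132, 135, 118, 128 and 114 (125 ± 8.87) with an SD of 0.10 log2 units and replicates 1 and 2 slightly above the rest. A replicate's centred signal is its log2 signal minus the gene's mean over the 5 samples. Centred signal averaged over the 3 repressors, minus the average over the other 45 genes above the level, was 0.31, 0.46, -0.07, -0.35 and -0.35 log2 units in replicates 1 to 5. That difference within an array does not depend on a shift of the whole array, and with quantile normalization it was 0.31, 0.42, -0.05, -0.33 and -0.35. It rests on the brightest probe sets of 3 genes, which for Eif4ebp1 the second probe set does not share, and was picked out after the values were seen. The second probe set of Eif4ebp2 (51.9, 54.9, 26.1, 35.3 and 18.6) was also highest in replicates 1 and 2. Another of Eif4ebp2 above background (63.1, 27.4, 19.8, 26.4 and 32.4) had replicate 2 below replicate 5. Neither Eif4ebp gene passed the test of variance (adjusted p = 0.99 and 0.99 for Eif4ebp2 and Eif4ebp1, F test against limma's trend).

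Both genes of subunit joining were above background on all 4 of their probe sets. Eif5b encodes the GTPase that joins the subunits, and gave 349, 391, 393, 469.5 and 508 (422 ± 64.8). Eif6, which keeps the free large subunit from joining too early, gave 217, 213, 142, 211 and 228 (202 ± 34.1). For Eif6 replicate 3 stood below the other 4 samples, and those 4 lay close together. Eif5a, whose protein carries the unusual amino acid hypusine and helps ribosomes over hard stretches, gave 2792, 2737, 2599, 2355 and 2308 (2558 ± 219, excess 7.02 ± 0.15).

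Of the 4 eEF1 genes, 3 were above background. Eef1a1, which brings aminoacyl-tRNA to the ribosome, gave 7025, 6360.0, 7455, 7758 and 7428 (7205 ± 539.6, excess 8.51 ± 0.06). Eef1b2 and Eef1d encode subunits of the exchange factor that recharges it. Eef1b2 gave 4068, 4124, 4178, 4345 and 3745 (4092 ± 219.8), and Eef1d gave 2892, 3084, 2730.3, 2821 and 3496 (3005 ± 304). On these brightest probe sets the SD was 0.08 to 0.14 log2 units. The other 2 probe sets of Eef1d varied more, with SDs of 0.30 and 0.64 log2 units at mean signals of 1998 and 63.3. Eef1a2, the form that replaces eEF1A1 in adult neurons and muscle, gave 18.9, 18.2, 26.6, 28.8 and 30.8 (24.7 ± 5.77). Its excess of 0.29 ± 0.07 did not pass (adjusted p = 0.23, limma), although neuronal and muscle genes were above background in the same arrays.

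Elongation factor 2 moves the ribosome by 1 codon. Eef2 gave 940.0, 1139.8, 629, 1169.6 and 1003 (976 ± 216, excess 5.60 ± 0.18), with replicate 3 the lowest. Its inhibitory kinase, Eef2k, gave 20.5, 25.3, 18.6, 17.5 and 25.5 (21.5 ± 3.74) and was not above background (adjusted p = 0.63, limma). Eef2kmt, a lysine methyltransferase of eEF2, gave 1.22, 9.02, 2.05, 8.99 and 0.9, and Eef1aknmt, which methylates eEF1A, gave 1.35, 5.29, 7.21, 1.3 and 2.74. Both lay below the level, and a single probe set without signal does not show that a transcript is absent. Eef1akmt1, another methyltransferase of eEF1A, gave 207, 182, 157, 137 and 277 (192 ± 54.3). Eef1e1, a component of the tRNA synthetase complex despite its name, gave 152, 210.0, 216, 133 and 217 (185 ± 40.0).

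Genes with several probe sets showed how far the call depended on the probe. Of 29 such genes, 13 (44.8%) had both probe sets that were above background and probe sets that were not, against 37.8% of the 4956 such genes on the array. For Eif3h the brightest probe set averaged 2642, while the other 2 averaged 13 and 6.64. Eif3e had 3 probe sets with means of 1686 to 4539.6 and another with 8.37. The last of these was its only plain _at probe set, so the call of Eif3e rests on probe sets of other kinds, as does that of Eif2d (18.8 on its plain probe set). Among Eif4g2 probe sets, 3 averaged 316 to 2210.4, and the last 11.4. All probe sets of Eif5, Eif3a, Eif3c, Eif4a1, Eif4b, Eif4e and Eif4h, each with 3 or 4, were above background. For 9 of the 50 genes the brightest probe set was of a kind whose name marks probes that also match other transcripts (_s_at or _x_at), Eif1a, Eif3e, Eif3c, Eif5a and Eef1d among them, so their signals may include signal of related transcripts.

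**Figure D2:**
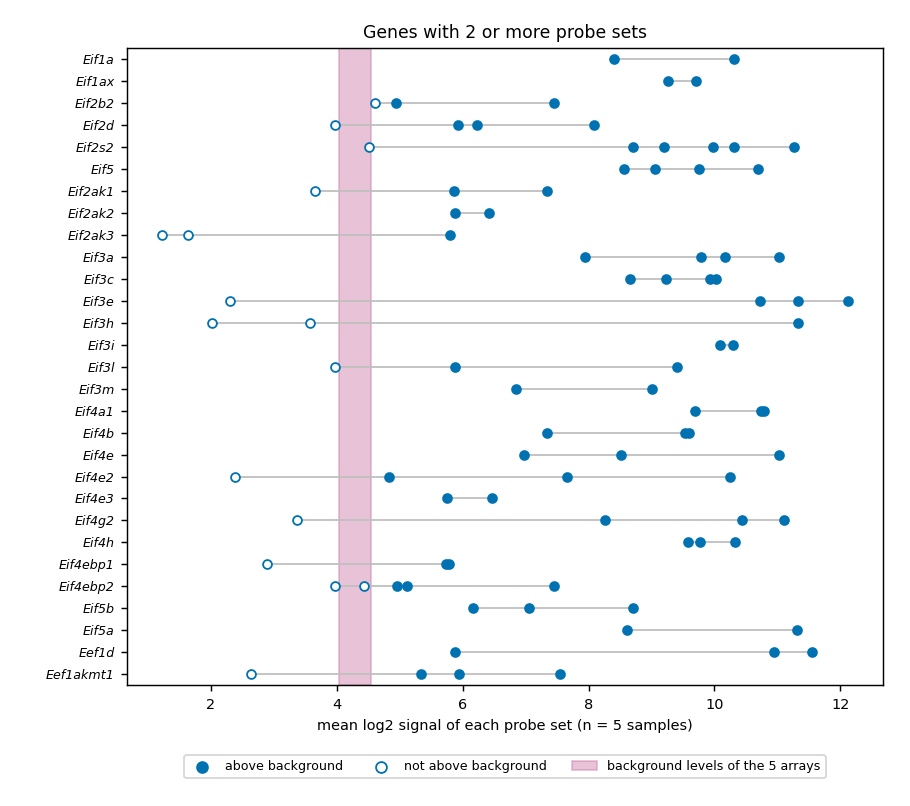
Mean log2 signal of every probe set of the 29 genes with 2 or more, filled where it was above background and open where it was not, with the range of the 5 background levels as a band. In 13 genes a filled and an open point share a row, Eif3h and Eif3e among them.

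No probe set of the factors passed a test of whether it varied more between samples than probe sets of like signal. Of 99 member probe sets with a mean above the level, 0 varied more than limma's trend of variance on signal at an adjusted p below 0.05 (F test), against 0.228% of 12697 probe sets. At an unadjusted p below 0.05 there were 2 (2.02%), against 5.32% of all, and this count was 4 without replicate 1, 5 without replicate 3, 1 without replicate 4 and 3 without replicate 5. With limma's prior fitted without both the trend and robust estimation, there were 0 calls among the members and 0 among all probe sets, with 1 member at an unadjusted p below 0.05. The median SD of the 99 probe sets was 0.27 log2 units, against 0.32 over all. The median ratio of variance to trend was 0.977 for the set and 0.891 for all. Of the 50 genes, 24 had a highest sample less than 1.5 times the lowest, 17 between 1.5 and 2 times, and 9 more than 2 times. These 9 included Eef2kmt (10.0-fold) and Eef1aknmt (5.56-fold), which both lay below the level.

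The 2 probe sets with an unadjusted p below 0.05 belonged to Eif2s2 and Eif3h. A less bright probe set of Eif2s2 gave 444, 1007, 622, 328 and 761, a variance 5.8 times the trend (adjusted p = 0.629, F test against limma's trend). Replicate 4 was its lowest sample, whereas replicate 4 was the highest on the brightest probe set of the same gene. For Eif3h, with values given above, the ratio was 3.35 (adjusted p = 0.933, same test).

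**Figure D3:**
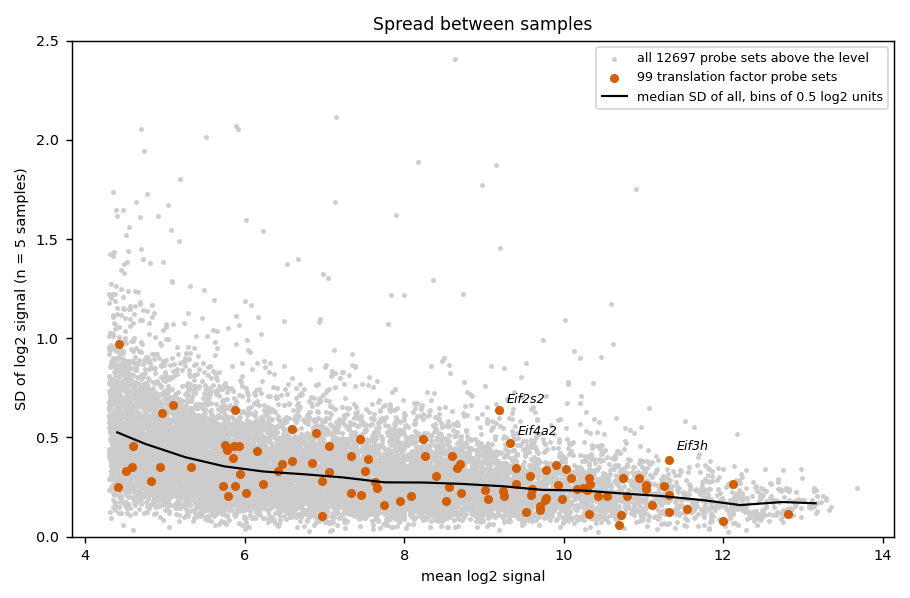
SD of log2 signal over the 5 samples against mean log2 signal for all 12697 probe sets above the level (grey) and the 99 translation factor probe sets (orange), with the median SD of all probe sets per bin as a line. The orange points scatter on both sides of the line, and Eif2s2, Eif4a2 and Eif3h, the 3 with the smallest unadjusted p, are labelled.

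The samples still differed in the level of the set as a whole. Averaged over the 48 genes with a mean above the level, the centred signal was -0.03, -0.02, -0.11, 0.06 and 0.11 log2 units in replicates 1 to 5, against 0.03, 0.01, -0.05, -0.03 and 0.04 over all 7378 such genes. Without replicate 3 the value of replicate 4 was 0.03. The 3 epithelial genes had -0.13, 0.02, -0.15, 0.22 and 0.04, although Epcam among them was lowest in replicate 5. The 4 muscle genes had -0.07, 0.03, -0.43, 0.04 and 0.42. Of these, Myog was higher in replicate 3 (77.5) than in replicate 5 (58.3), while the other muscle genes were lower. Myl7 had 13 in replicate 3, below that array's background level of 19, and 70.4 in replicate 5. The other translation genes listed last had 0.12, 0.09, -0.10, -0.07 and -0.04. Replicate 4 or 5 was the highest sample for 33 of the 48 (68.8%), against 45.3% of all genes. Replicates 4 and 5 also had the highest background levels and the highest median signals (30.3 and 32.2), and the part of these and of the epithelial and muscle genes in the result was not tested. The count of highest samples depended on the scaling of the arrays. With quantile normalization the count was 29 (60.4%, against 44.3% of all), and with each array's median subtracted it was 18 (37.5%, against 31.4%). With the last of these the mean of replicate 5 was -0.016. That subtraction moves all genes of an array by the same amount. The median centred signal in replicate 5 was then 0.016 for the set, against -0.073 over all genes. Under the deposited scaling these medians were 0.14 and 0.051.

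In eIF3 this order was seen under each of the 3 scalings. On the brightest probe sets, replicate 4 or 5 was the highest sample for 8 of its 11 genes. This held under the deposited scaling, with quantile normalization and with the medians subtracted alike. On the other probe sets of Eif3e, Eif3i and Eif3l above background, replicate 4 was the lowest sample instead. The other probe sets of Eif3c were highest in replicate 4 or 5. The mean centred signal of eIF3 was -0.09, -0.12, -0.17, 0.16 and 0.23 in replicates 1 to 5. With the medians subtracted it was -0.07, -0.05, -0.10, 0.12 and 0.10. Subunit joining, with 2 genes, also had its highest means in replicates 4 and 5 under each scaling on the brightest probe sets. The other probe sets of Eif5b gave 116, 99.3, 150, 220 and 111, and 49.3, 80.1, 95.3, 90.3 and 55.1. On both, replicate 5 was below replicate 3. The 7 genes of eIF2, eIF2B and eIF5 had -0.12, -0.05, -0.21, 0.23 and 0.15, and -0.10, 0.02, -0.14, 0.19 and 0.03 with the medians subtracted. The 9 genes of eIF4F and its helpers stayed within -0.03 and 0.04 on the deposited scale, and ran between -0.12 and 0.11 with the medians subtracted. The median centred signal of all genes ran between -0.019 and 0.051 on the deposited scale, and between -0.073 and 0.087 with the medians subtracted. These role groups were compared after their values were seen, and no test was made between them.

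**Figure D4:**
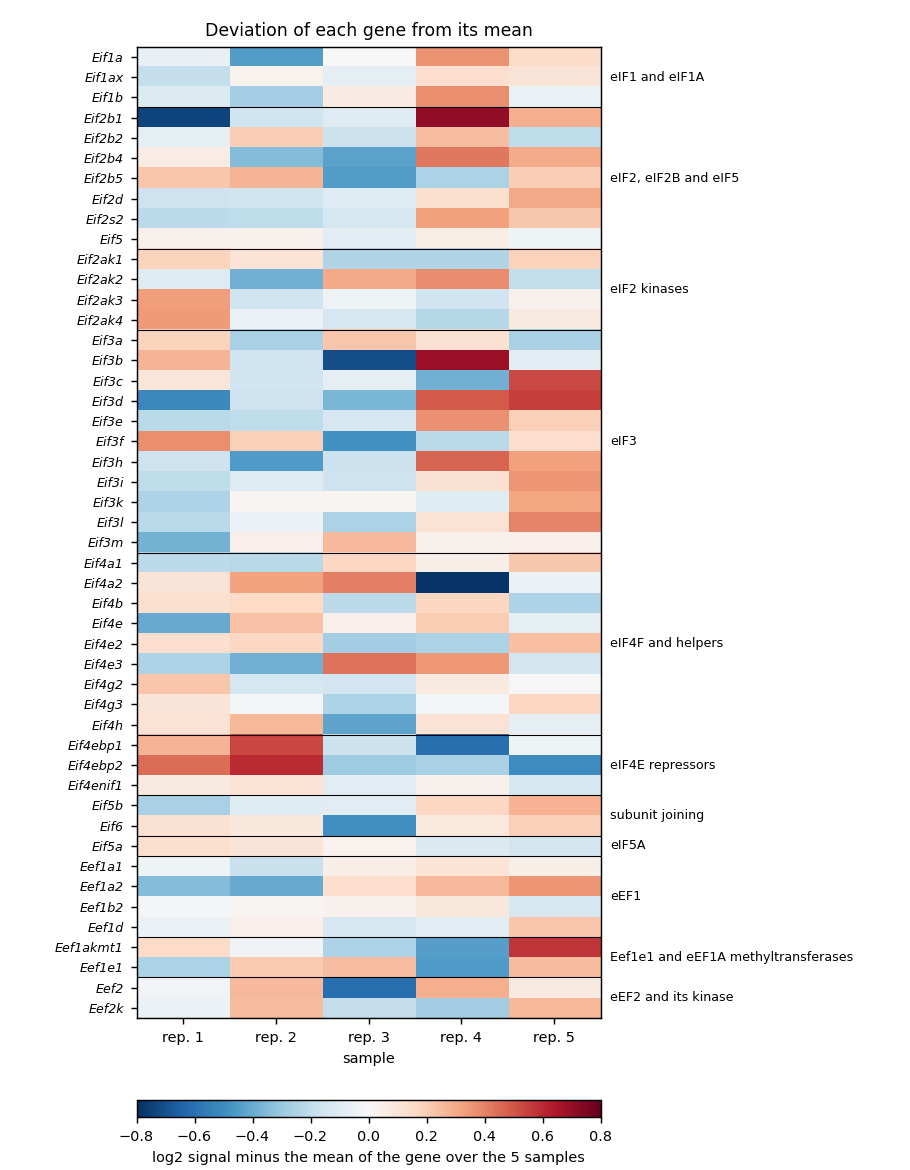
Log2 signal of each of the 48 genes above the level minus its mean over the 5 samples, 1 column per sample, grouped by role, red above and blue below the mean. Many eIF2 and eIF3 rows are red in replicates 4 and 5, Eif4ebp1 and Eif4ebp2 are red in replicates 1 and 2, and Eif4a2 is dark blue in replicate 4.

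Other genes of translation and its control, from a list of 48 drawn up with earlier results known, gave 34 above background of 43 measured, where 53.7% of all genes were. They included the release factors Etf1 (563 ± 130.3) and Gspt1 (307 ± 46), the recycling factor Abce1 (1891 ± 209) and the poly(A)-binding protein Pabpc1 (1611 ± 293). Denr (1811 ± 416) and Mcts1 (515 ± 67.9) act as a pair in reinitiation. Dhps (119 ± 48.9) and Dohh (44.1 ± 19.1), the enzymes that make hypusine on eIF5A, both passed. Downstream of eIF2 phosphorylation, Atf4 gave 427 ± 32.2, its target Asns 409.6 ± 65.6 and the constitutive eIF2 phosphatase subunit Ppp1r15b 869.7 ± 168. The stress-induced subunit Ppp1r15a (15.2 ± 6.01) and the ATF4 target Trib3 (21.2 ± 11.5) did not pass, whereas Ddit3, another stress-induced gene downstream of ATF4, did (44.5 ± 13.7). The other 7 without a call were Gspt2, Atf5, Rps6kb2, Mknk1, Habp4, Pelo and Dph2. Mtor gave 95 ± 26.5, and its effector on oligopyrimidine messages, Larp1, 322 ± 70.6. Mknk2, a kinase of eIF4E, gave 1020.5, 725, 406, 425 and 475 and was highest in replicates 1 and 2. It was chosen after its values were seen.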

How the data were processed

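The deposited values were intensity values on a linear scale, 1 signal per probe set and array. Per the submitters' processing notes they came from GCOS; version, algorithm and settings were not given in the sources used here. On every array the trimmed mean after leaving out 2% at each end was 150.1, so the deposited intensity values had been scaled to a common target. Values under 1 were set to 1 before log2 was taken, and 64 control probe sets were left out. Symbols were updated by Entrez identifier through RefSeq (GRCm38.p6), which matched all 114 member probe sets and changed none of their symbols. Of the probe sets, 691 had several genes and 1555 none in the platform annotation. Detection and variance were tested with limma 3.58.1 (R 4.3.3; eBayes with a variance trend and robust estimation after lmFit) across all probe sets, with tables made in Python 3.11.15. The variance test compared each variance with limma's prior (11.6 prior degrees of freedom). The uncertainty of the background level itself is not part of any p-value. Arrays give no counts, and their number limits the precision. Named with all sample values were, in each role group, the 3 genes with the largest excess, all genes not above background, the 6 with the largest SD above the level, any gene called more variable than the trend, paralog pairs and Eif1ax. Members and lists were chosen with earlier results of these data known. Tests were tried on simulated data. Alternatives covered the level, floor, scaling, limma options, probe set type, symbols and each left-out sample.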

Additional observations from a re-analysis of the deposited data

Results flagged for a closer look

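Of 51 values checked for a sample far from the other 4 (50 genes and the mean of the set), 1 had such a sample by Dixon's criterion for 5 samples (a gap over 0.71 of the range), and chance gives about 1 in 20. Eif6, whose protein keeps free large ribosomal subunits apart from small ones, gave 142 in replicate 3 and 211 to 228 in the other samples, a gap of 0.842 of its range.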

How the results depend on the processing

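The counts moved with the background level. A broader name pattern, which also takes in the widely expressed casein kinases and interferon receptors, raised the mean level to a signal of 146 and left 60 of 114 probe sets above it (52.6%, against 20.1% of all), 31 of 50 genes, and 22 of the 43 other translation genes. Among the genes given with all sample values, the excess turned negative for Eif2ak2 (-0.77), Eif2ak4 (-1.17), Eif2b1 (-0.59), Eif3b (-0.29), Eif4enif1 (-0.22), Eif4ebp1 (-1.40) and Eif4e3 (-0.72). With plain _at probe sets alone, 51 of 67 probe sets (76.1%, against 45.9% of all) and 31 genes were above background. Fewer were tested, and the shares were also lower than with all probe set types (82.5%, against 49.9%). The excess was negative for Eif2d (-0.32) and Eif3e (-2.0). With each array's median subtracted, which moves all genes of an array alike, the mean centred signal in replicate 5 was -0.016. The median centred signal there was 0.016 for the set, against -0.073 over all genes. Without 1 replicate at a time, 92 to 95 probe sets, 46 genes and 34 to 35 other translation genes were above background, the median SD was 0.25 to 0.27, and 0 member probe sets passed the variance test in any of these. The number passing over all probe sets was 29 and ran from 0 to 50 over the alternatives. The number of member probe sets at an unadjusted p below 0.05 in that test was 2 and ran from 1 to 5. With the other settings tried, the counts of member genes and probe sets above background stayed within 1.5 times their value. Leaving out replicates for the centred signal was added after seeing the data. No paired analysis was possible because there was 1 group.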

Other observations

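In 27 member genes the 2 brightest probe sets both had a mean above the level. They had the same highest sample in 7 (25.9%), against 30.3% of 2758 genes, and the same lowest sample in 7, against 28.0%, shares near those of all genes. For Eif3i the brightest probe set was highest in replicate 5 (1602) and the second highest in replicate 1 (1435). For Eif5a the brightest was highest in replicate 1 (2792) and the second in replicate 4 (636, against 321 to 385 in the others). Eif4ebp2 was one of the genes that went together, with replicate 2 highest on 2 of its 5 probe sets, replicate 1 on another 2 and replicate 5 on 1. These genes and this measure were picked after the values were seen.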
